A study of Mus musculus with 16 samples.

Results

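The endoplasmic reticulum (ER) folding and secretion genes are a list of 44 genes of the unfolded protein response, its chaperones, the protein-conducting channel, N-glycosylation, ER-associated degradation and the coat that carries cargo out. They were taken by gene symbol from the 31274 features of the deposited table, and all 44 were found. Each had a mean of at least 1 FPKM (fragments per kilobase of transcript, scaled to the number of fragments in the library) over the 16 libraries, the minimum for a test, as did 15408 features in all. The libraries came from whole uteri of ovariectomized mice carrying Cre expressed from the progesterone receptor locus (Pgrcre) and 1 conditional transgene allele. The PRB strain (PgrcrePgrBLsL/+) overexpressed receptor isoform B and the PRA strain (PgrcrePgrALsL/+) isoform A. Each strain gave 4 uteri 6 h after progesterone (P4) and 4 uteri 6 h after oil vehicle, 2 weeks after ovariectomy, and the labels put the females at 8 weeks. The labels call the 4 samples of each group biological replicates, so p-values measure the spread between these uteri.

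All groups carried both the Cre allele and a transgene, so no uterus without either is included, and Cre from this locus acts in every cell type that has expressed the receptor. A treatment note in the labels speaks of mating and of a pregnancy stage, which differs from the ovariectomy and injection named for each sample. Library positions in the labels follow strain and treatment, so position and group cannot be told apart. Pgr itself, read per gene without telling the isoforms apart, averaged 112 ± 22.3 FPKM in PRB P4 and 73.9 ± 1.80 FPKM in PRA P4 uteri (SD, n = 4 each). With oil it averaged 83.5 ± 4.49 FPKM in PRB and 64.9 ± 5.52 FPKM in PRA uteri. Low values of single-transcript genes stepped in units that correspond to a depth of about 59200000 to 74600000 fragments per library, and the depth itself is not given in the sources used here.

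Secreted and membrane proteins enter the ER through the Sec61 channel, lose their signal peptide, receive N-linked sugars and fold with the help of BiP, its cofactors, lectins and disulfide isomerases. When unfolded proteins build up, 3 kinds of membrane sensor (IRE1, PERK and ATF6) raise the capacity of this machinery, in part through the transcription factor XBP1, which also widens the ER of professional secretory cells. The uterus is a secretory organ under ovarian hormones: glands release histotroph, and stromal cells lay down collagen that matures in the ER.

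With P4, 43 of the 44 genes rose in each strain and 1, Derl3, fell in each. The call was a Benjamini-Hochberg adjusted p under 0.05 in limma's moderated test on log2(FPKM + 1), adjusted over all features. This has to be read against a very broad response, in which 69.8% of tested features were called in PRA (36.6% higher and 33.2% lower) and 69.1% in PRB (36.2% higher and 32.9% lower). The median log2 difference of the 44 genes was 1.16 in PRA and 1.24 in PRB, against 0.01 and 0 over all features tested. An increase of at least 1 log2 unit was seen in 26 genes in PRA and 28 in PRB, and of at least 2 in 7 genes in each strain. All of these were among the 1540 of 15408 features with the largest increases in their strain. In PRA, P4 and oil uteri did not overlap for any of the 44 genes, 43 higher and 1 lower with P4, against 66.2% of all features (35.0% higher and 31.2% lower). In PRB they did not overlap for 43 genes, all higher with P4, against 61.0% of all features (32.6% higher and 28.5% lower). Of the 1540 features with the largest increases, the list held 30 genes in PRA (68.2% of the list) and 35 in PRB (79.5%).

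**Figure D1:**
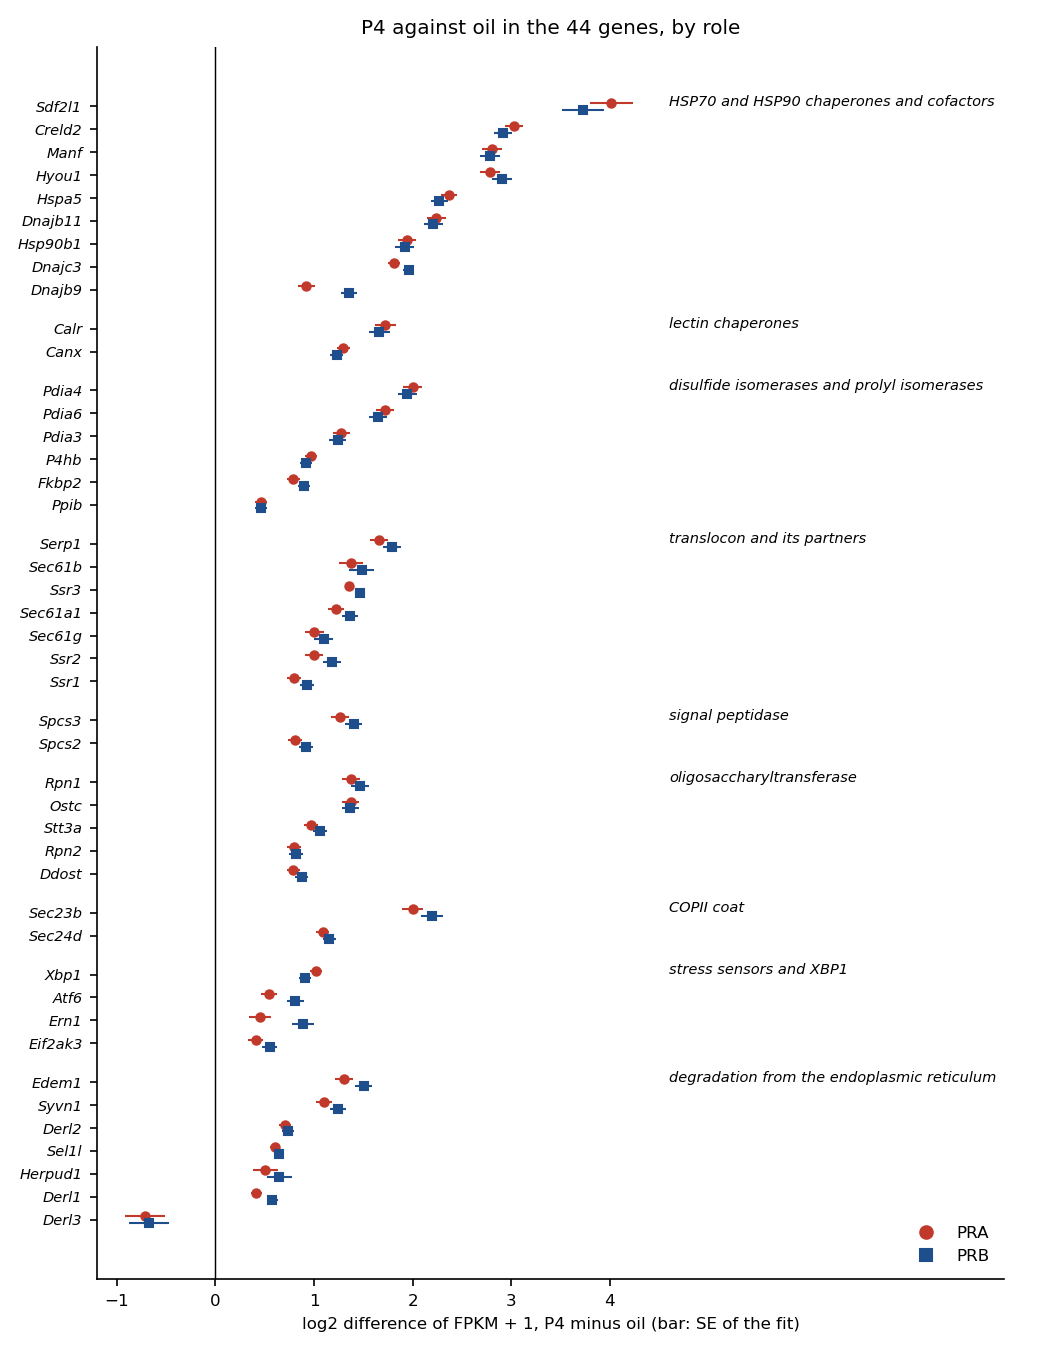
Each point is the log2 difference of P4 against oil for 1 gene on the log2(FPKM + 1) scale, with its SE as a bar, in PRA and PRB uteri (n = 4 per group), ordered by role. Sdf2l1 lies highest at 4.02 in PRA and 3.72 in PRB, and Derl3 alone lies below 0 in both strains.

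Summed over the list, transcript levels were 5801 ± 334 FPKM in PRA P4 and 2178 ± 124 FPKM in PRA oil uteri, and 6112 ± 384 FPKM in PRB P4 and 2247 ± 124 FPKM in PRB oil uteri (SD, n = 4 each). That was 0.995% of all FPKM in PRA P4 and 0.422% in PRA oil uteri, and 1.04% in PRB P4 and 0.436% in PRB oil uteri. In bulk tissue, a change in the number of cells that express a gene and a change in its RNA per cell cannot be told apart.

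**Figure D2:**
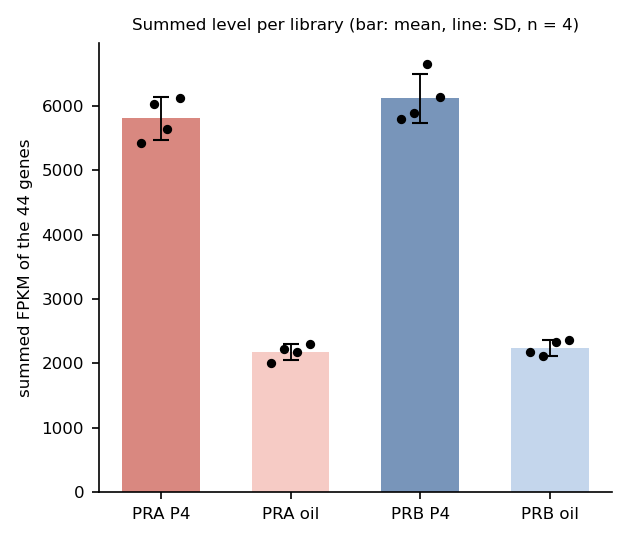
Summed FPKM of the 44 genes in each library (points), with the group mean as a bar and the SD as a line (n = 4). P4 libraries sit between 5416 and 6647 FPKM and oil libraries between 2010 and 2371 FPKM, with no overlap.

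The chaperones of the HSP70 and HSP90 systems and their cofactors moved most. All 9 rose in both strains, with a median log2 difference of 2.37 in PRA and 2.27 in PRB, and their summed level was 1608 ± 124 FPKM in PRA P4 against 319 ± 24.0 FPKM in PRA oil uteri and 1682 ± 95.9 FPKM in PRB P4 against 339 ± 36.7 FPKM in PRB oil uteri. Hspa5 encodes BiP, the HSP70 of the ER lumen that also holds the stress sensors in check. It stood at 486, 537, 483 and 559 FPKM in PRA P4 uteri, against 90.1, 98.4, 99.9 and 107 FPKM in PRA oil uteri. In PRB it stood at 546, 518, 539 and 531 FPKM with P4, against 98.9, 97.2, 123 and 122 FPKM with oil. Every P4 uterus was thus above every oil uterus by a wide margin, with a log2 difference of 2.37 in PRA (SE 0.08, adjusted p = 5.9e-11) and 2.27 in PRB (SE 0.08, adjusted p = 3.29e-11).

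Sdf2l1, a partner of the BiP cochaperone ERdj3, changed most of the 44 genes. Its level was 114, 138, 112 and 138 FPKM in PRA P4 uteri, against 5.23, 7.15, 5.57 and 10.1 FPKM in PRA oil uteri. In PRB P4 uteri it was 87.0, 118, 142 and 114 FPKM, against 6.27, 5.25, 9.93 and 10.4 FPKM in PRB oil uteri. The ratio of the group means was 17.9 in PRA and 14.5 in PRB, and the gene ranked 11 in PRA and 29 in PRB among all increases. The log2 difference was 4.02 in PRA (SE 0.22, adjusted p = 1.32e-09) and 3.72 in PRB (SE 0.22, adjusted p = 2.19e-09).

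The other cofactors formed a graded series. Creld2, an ER protein whose transcript is known to rise under ER stress, had 109, 132, 109.7 and 124 FPKM in PRA P4 uteri, against 12.1, 13.8, 12.9 and 15.8 FPKM in PRA oil uteri. Its log2 difference was 3.03 in PRA and 2.91 in PRB. Manf, a BiP-binding protein that can leave the cell, had log2 differences of 2.81 in PRA and 2.78 in PRB, and Hyou1, a nucleotide exchange factor for BiP, of 2.78 in PRA and 2.91 in PRB. Dnajb11, which encodes ERdj3, followed with 2.24 in PRA and 2.21 in PRB. Hsp90b1, the HSP90 of the ER lumen, rose by 1.94 in PRA and 1.92 in PRB, and Dnajc3, a J-domain cochaperone known as P58IPK, by 1.81 in PRA and 1.96 in PRB. The smallest increases of this role belonged to Dnajb9, or ERdj4, a cochaperone that brings BiP to IRE1, at 0.92 in PRA and 1.35 in PRB.

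The lectin chaperones and the isomerases, which fold glycoproteins and form disulfide bonds, rose in full, with smaller differences. Calr, encoding calreticulin, had 431, 487, 455 and 510.4 FPKM in PRA P4 uteri, against 123, 153, 132 and 162 FPKM in PRA oil uteri, and a log2 difference of 1.72 in PRA and 1.66 in PRB. Canx, encoding its membrane-bound relative calnexin, had log2 differences of 1.30 in PRA and 1.23 in PRB. Among 6 isomerases the differences ran down from Pdia4, at 2.00 in PRA and 1.94 in PRB, through Pdia6 (1.72 in PRA, 1.65 in PRB) and Pdia3 (1.27 in PRA, 1.24 in PRB), the partner of both lectins. P4hb, the classical disulfide isomerase and also the beta subunit of collagen prolyl 4-hydroxylase, differed by 0.97 in PRA and 0.92 in PRB. The prolyl isomerases came last, with Fkbp2 at 0.79 in PRA and 0.90 in PRB. Ppib, cyclophilin B of collagen folding, was already high with oil (151 to 180.4 FPKM in PRA, 168 to 186 FPKM in PRB) and differed by 0.46 in each strain.

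**Figure D3:**
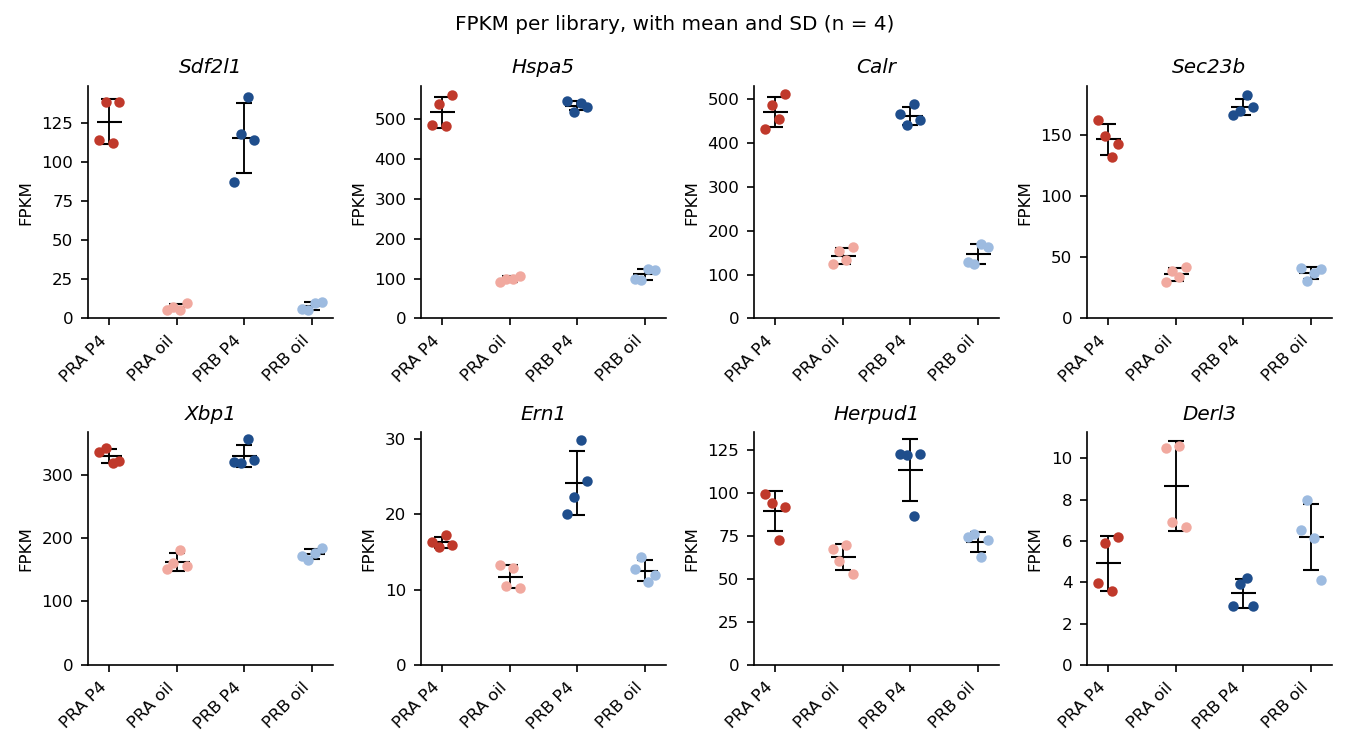
FPKM in every library of selected genes (points), with the group mean and SD (n = 4), for PRA P4, PRA oil, PRB P4 and PRB oil uteri. For Hspa5 the P4 libraries lie between 483 and 559 FPKM and the oil libraries between 90.1 and 123 FPKM, while Derl3 is lower with P4.

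Promoters of the chaperone genes are printed because the ER stress response element (ERSE), to which ATF6 and XBP1 bind together with NF-Y, is defined by its letters. The 250 bases upstream of each start were read from RefSeq promoters of GRCm38.p6, of which 36 of the 44 genes had an entry, and the letters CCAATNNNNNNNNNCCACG were searched on both strands. They stood upstream of 9 of the 36 genes (25%), against 35 of 27025 genes with an entry (0.13%), or 37 of 32851 promoters (0.113%). The list was chosen for the ER stress response and its chaperones, so a share above that of all genes is not an independent result. The 9 genes were Calr, Canx, Creld2, Derl3, Dnajc3, Hsp90b1, Hspa5, Pdia6 and Syvn1. The sequences below are of the 4 with the largest increase in PRA, written in the direction of transcription, with the CCAAT and CCACG parts of each element, or their complements, in capitals. Hsp90b1 holds 2 elements, 1 on each strand.
Creld2, chr15:88819396-88819645, plus strand: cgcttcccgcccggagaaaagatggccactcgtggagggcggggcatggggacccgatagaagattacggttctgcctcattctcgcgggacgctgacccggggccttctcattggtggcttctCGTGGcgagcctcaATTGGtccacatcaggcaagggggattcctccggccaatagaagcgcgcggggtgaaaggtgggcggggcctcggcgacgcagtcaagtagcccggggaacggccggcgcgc
Hspa5, chr2:34771840-34772089, plus strand: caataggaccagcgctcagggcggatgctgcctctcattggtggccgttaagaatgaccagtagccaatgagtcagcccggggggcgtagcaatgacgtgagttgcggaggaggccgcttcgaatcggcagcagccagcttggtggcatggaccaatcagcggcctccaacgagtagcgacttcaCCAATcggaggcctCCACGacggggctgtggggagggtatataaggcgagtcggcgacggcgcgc
Hsp90b1, chr10:86705445-86705694, minus strand: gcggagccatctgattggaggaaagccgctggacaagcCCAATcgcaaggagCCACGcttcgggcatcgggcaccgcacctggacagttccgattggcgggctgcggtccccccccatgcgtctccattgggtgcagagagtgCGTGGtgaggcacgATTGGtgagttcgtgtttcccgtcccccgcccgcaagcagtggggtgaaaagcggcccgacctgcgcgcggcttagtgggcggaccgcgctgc
Dnajc3, chr14:118937682-118937931, plus strand: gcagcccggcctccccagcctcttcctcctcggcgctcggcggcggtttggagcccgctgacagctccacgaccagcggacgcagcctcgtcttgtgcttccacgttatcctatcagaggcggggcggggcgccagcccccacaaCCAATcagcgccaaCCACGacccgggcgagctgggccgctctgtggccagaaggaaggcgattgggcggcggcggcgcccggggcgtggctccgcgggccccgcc

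The 9 genes with the element had a median log2 difference of 1.72 in PRA and 1.66 in PRB, and the 27 genes whose promoter entry lacked these letters had 0.97 in PRA and 1.06 in PRB. Both sets ranged widely, since Sdf2l1 is among the 27 and Derl3, with the element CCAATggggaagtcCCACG upstream, among the 9. Another form, ERSE-II, written ATTGGNCCACG, was found upstream of Herpud1 (2.78% of the 36 genes, against 0.037% of all genes with an entry). The letters TGACGTG, the core to which XBP1 binds, stood upstream of Hspa5 and Sec24d (5.56% of the 36 genes, against 1.85% of all genes with an entry). As the list was chosen by function, these shares are not independent results either. A match describes letters only, and binding at these places was not measured. The sets with and without the element also differ in the roles of their genes, and the part of the element in these increases was not tested.

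The sensors and XBP1 rose less than the chaperones, with a median log2 difference of 0.50 in PRA and 0.85 in PRB. Xbp1 encodes the factor whose mRNA IRE1 splices, and gene-level FPKM do not tell its spliced form apart. It had 336, 343, 318 and 321 FPKM in PRA P4 uteri, against 151, 160.3, 182 and 155 FPKM in PRA oil uteri, a log2 difference of 1.02 (SE 0.06, adjusted p = 2.5e-09). In PRB it had 320.1, 319, 356 and 323 FPKM with P4, against 172, 165, 177 and 185 FPKM with oil, a log2 difference of 0.91. Its level was thus far above those of the 3 sensors in every library, on a scale that is per length. Atf6 had 15.5 to 18.7 FPKM in PRA P4 against 11.4 to 11.9 FPKM in PRA oil uteri, and 18.1 to 25.9 FPKM in PRB P4 against 11.4 to 11.8 FPKM in PRB oil uteri. Eif2ak3, which encodes PERK, differed by 0.41 in PRA (adjusted p = 0.000214) and 0.55 in PRB (adjusted p = 1.26e-05). Ern1, which encodes IRE1 alpha, had 16.4, 15.6, 17.2 and 15.9 FPKM in PRA P4 uteri, against 13.2, 10.5, 12.8 and 10.2 FPKM in PRA oil uteri. In PRB P4 uteri it had 20.0, 22.3, 29.9 and 24.5 FPKM, against 12.7, 14.3, 11.0 and 11.9 FPKM in PRB oil uteri. The groups did not overlap in either strain, and the log2 difference was 0.45 in PRA (SE 0.11, adjusted p = 0.00225) and 0.89 in PRB (SE 0.11, adjusted p = 5.3e-06).

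Of 7 genes of ER-associated degradation, 6 rose and Derl3 fell, with a median log2 difference of 0.60 in PRA and 0.65 in PRB. Edem1, a mannosidase-like protein that extracts glycoproteins from folding, and Syvn1, the ubiquitin ligase HRD1, rose most, by 1.31 and 1.10 in PRA and by 1.502 and 1.24 in PRB. Sel1l, the adaptor of HRD1, differed by 0.60 in PRA and 0.65 in PRB. Herpud1, a scaffold of the same complex, had 99.5, 94.2, 72.6 and 91.8 FPKM in PRA P4 uteri, against 67.6, 60.6, 69.6 and 52.7 FPKM in PRA oil uteri. Its lowest P4 uterus lay just above its highest oil uterus, the log2 difference was 0.51 (adjusted p = 0.00236), and with quantile normalization it was 0.27 and no longer called (adjusted p = 0.0664). In PRB its log2 difference was 0.65 (adjusted p = 0.00034).

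The 3 derlins, membrane proteins of the exit channel for misfolded proteins, did not move together. Derl1 differed by 0.41 in PRA and 0.58 in PRB, and Derl2 by 0.70 in PRA and 0.73 in PRB, all higher with P4. Derl3 had 3.97, 5.88, 3.58 and 6.20 FPKM in PRA P4 uteri, against 10.5, 6.91, 10.6 and 6.68 FPKM in PRA oil uteri. In PRB it had 2.86, 3.93, 4.21 and 2.85 FPKM with P4, against 6.52, 7.97, 6.16 and 4.12 FPKM with oil, so that 1 PRB P4 uterus overlapped 1 PRB oil uterus. It fell by 0.71 in PRA on the log2 scale (SE 0.20, adjusted p = 0.00619) and by 0.67 in PRB (SE 0.20, adjusted p = 0.00872). With quantile normalization the PRB difference was -0.47 and no longer called (adjusted p = 0.0596).

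Derl3 is known from plasma cells and exocrine cells, so their markers are given beside it. Of 14 plasma and B cell markers 11 were in the table and 7 passed the filter. In PRA 3 of the 7 rose, namely Igj, Mzb1 and Sdc1 (42.9%, against 36.6% of all features), and 1 fell, Prdm1 (14.3%, against 33.2%). The list median in PRA was 0.06, with summed levels of 124 to 174 FPKM in P4 against 72.4 to 97.6 FPKM in oil uteri. In PRB none rose (0%, against 36.2% of all features) and Prdm1 fell (14.3%, against 32.9%). The summed levels in PRB were 71.7 to 93.4 FPKM in P4 against 90.6 to 137 FPKM in oil uteri. Most of the sum came from Sdc1 and, in PRA P4 uteri, Igj, so it does not describe the markers as a class. Each of the 11 markers was above 0 in every library. Of 9 ovary and exocrine pancreas markers 3 passed the filter, and all 9 together summed to 8.79 to 12.1 FPKM in PRA P4 against 21.6 to 31.9 FPKM in PRA oil uteri, and 10.5 to 11.96 FPKM in PRB P4 against 20.1 to 28.5 FPKM in PRB oil uteri. This list mixes ovary and exocrine pancreas genes, and its most expressed member was Inha, an ovary gene, so its sum does not describe exocrine cells. The part of any of these cell types in the fall of Derl3 was not tested.

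The channel through which new proteins enter the ER rose as a unit. All 7 genes of the translocon and its partners were called higher in both strains, with a median log2 difference of 1.22 in PRA and 1.37 in PRB. Sec61a1, the pore subunit, had 176, 195, 201 and 199.8 FPKM in PRA P4 uteri, against 73.7, 85.7, 79.7 and 90.3 FPKM in PRA oil uteri. Its PRB values were 185, 215, 236 and 241 FPKM with P4, against 81.2, 81.5, 83.2 and 89.8 FPKM with oil. The lowest P4 uterus of either strain was far above the highest oil uterus, with log2 differences of 1.22 in PRA and 1.37 in PRB. Among the small subunits, Sec61b differed by 1.37 in PRA and 1.48 in PRB and Sec61g by 1.00 in PRA and 1.10 in PRB. Serp1, a small protein that binds the channel and is known to protect membrane proteins under stress, differed most, by 1.65 in PRA and 1.79 in PRB. The genes of the translocon-associated TRAP complex ranged from Ssr1, at 0.80 in PRA and 0.93 in PRB, to Ssr3, at 1.36 in PRA and 1.46 in PRB, with Ssr2 between them. Ssr3 had the tightest replicates of these 7 genes (SE 0.04): its level was 212 to 234 FPKM in PRA P4 against 84.5 to 91.6 FPKM in PRA oil uteri, and 233 to 253 FPKM in PRB P4 against 87.1 to 88.5 FPKM in PRB oil uteri.

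The enzymes that act on the chain as it emerges rose by about 1 log2 unit. All 5 oligosaccharyltransferase subunits, which transfer the N-linked sugar, were higher with P4, with medians of 0.97 in PRA and 1.06 in PRB. Stt3a, a catalytic subunit, had 67.8, 75.9, 74.4 and 76.9 FPKM in PRA P4 uteri, against 37.4, 37.0, 37.4 and 37.1 FPKM in PRA oil uteri. Its PRB values were 72.0, 73.4, 96.2 and 83.2 FPKM with P4, against 37.9, 38.5, 38.4 and 37.4 FPKM with oil. Oil uteri of both strains thus lay between 37.0 and 38.5 FPKM, and all P4 uteri far above them. Rpn1 and Ostc, other subunits of the enzyme, differed by 1.38 and 1.37 in PRA and by 1.46 and 1.37 in PRB, and Rpn2 and Ddost by 0.80 and 0.79 in PRA and by 0.82 and 0.87 in PRB. The signal peptidase subunits Spcs2 and Spcs3 differed by 0.80 and 1.26 in PRA and by 0.92 and 1.40 in PRB.

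The 2 genes of the inner COPII coat, which forms the vesicles that leave the ER, differed in size of response. Sec23b had 162, 149, 131 and 142 FPKM in PRA P4 uteri, against 29.7, 38.6, 33.6 and 42.1 FPKM in PRA oil uteri, and 166, 169, 182 and 173 FPKM in PRB P4 uteri, against 41.3, 30.2, 36.8 and 40.4 FPKM in PRB oil uteri. Its log2 difference was 2.00 in PRA and 2.19 in PRB, in the range of the chaperones. Sec24d, its cargo-binding partner, differed by 1.09 in PRA and 1.16 in PRB. The difference between these 2 genes was not tested.

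The P4 responses of the strains, which share no library, were close to each other across the 44 genes. Pearson's r between the log2 differences was 0.989 and Spearman's rho 0.976, as a description over genes, which are not independent replicates. The response was larger in PRB for 29 genes and larger in PRA for 15, with a median difference of 0.09 and a largest of 0.44. In the test of the difference between responses none of the 44 genes was called, against 2.28% of all features (1.47% larger and 0.811% smaller in PRB). The highest values were those of Ern1 at 0.44 (95% interval 0.09 to 0.78, adjusted p = 0.175), Dnajb9 at 0.43 (0.17 to 0.69, adjusted p = 0.0742) and Atf6 at 0.27 (0.01 to 0.53, adjusted p = 0.272), all larger in PRB. For Hspa5 the interval ran from -0.35 to 0.15, for Xbp1 from -0.29 to 0.07 and for Sdf2l1 from -0.95 to 0.37, which bounds any difference between the strains without showing that they respond alike. Without replicate 3 of PRB P4, the difference for Dnajb9 was 0.33 and was called (adjusted p = 0.0323).

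Set side by side after P4, 3 of the 44 genes (6.82%) were higher in PRB than in PRA uteri and none lower, against 16% of all features (7.75% higher and 8.29% lower), so the share called higher was near that of all features. These were Dnajb9, Ern1 and Atf6. Dnajb9 had 84.2, 83.8, 112 and 82.6 FPKM in PRB P4 uteri, against 61.6, 72.3, 60.7 and 64.3 FPKM in PRA P4 uteri, a log2 difference of 0.47 (SE 0.08, adjusted p = 0.00225). Ern1 differed by 0.53 (SE 0.11, adjusted p = 0.00649), and for both genes every PRB P4 uterus was above every PRA P4 uterus. The same held for Sec23b, which was not called, while 20.2% of all features did not overlap (9.23% higher and 10.9% lower in PRB). Atf6 differed by 0.26 (SE 0.08, adjusted p = 0.0481), with overlapping ranges, and it was not called in 18 of 23 alternative fits. Eif2ak3 lay at 0.22 (adjusted p = 0.0576), Herpud1 at 0.33 (adjusted p = 0.0876) and Derl3 at -0.39 (adjusted p = 0.211). Among the chaperones, Hspa5 had a log2 difference of 0.05 (adjusted p = 0.718), Hsp90b1 of 0.00 (adjusted p = 0.987) and Creld2 of 0.04 (adjusted p = 0.783).

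Replicate 3 of PRB P4 stood apart, being the highest of its group for 36 of the 44 genes and holding the highest summed level (6647 FPKM, against 5790 to 6127 FPKM in the other PRB P4 uteri). Leukocyte markers summed to 492 FPKM in that uterus, against 283 to 304 FPKM in the other PRB P4 uteri, and epithelial markers to 2226 FPKM, against 1706 to 1879 FPKM. Their part in these levels was not tested. Without that uterus the PRB minus PRA difference after P4 was 0.37 for Dnajb9 (adjusted p = 0.000868), 0.42 for Ern1 (adjusted p = 0.0122) and 0.17 for Atf6 (adjusted p = 0.0884). Replicate 1 of PRB P4 was lowest of its group for 28 genes. Without it, 8 genes were called higher in PRB, with Eif2ak3, Edem1, Derl1, Sec61a1 and Ssr2 added. In that fit 1070 of 15408 features were called higher, against 1194 with all libraries. The other groups held such uteri too. In PRA oil, replicate 1 was lowest for 31 genes and replicate 4 highest for 28. In PRA P4, replicate 1 was lowest for 30 and replicate 4 highest for 23. In PRB oil, replicate 2 was lowest for 24 and replicate 4 highest for 22.

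With oil, the strains did not differ for any of the 44 genes in limma's test, against 0.117% of all features called (0.0389% higher and 0.0779% lower). The log2 differences of PRB minus PRA ran from -0.43 for Derl3 to 0.19 for Herpud1, with a median of 0.04. Spcs3 was the gene whose oil uteri did not overlap between strains, with 24.8 to 26.7 FPKM in PRB and 27.3 to 30.3 FPKM in PRA uteri, where 3.39% of all features did not overlap (1.25% higher and 2.14% lower in PRB).

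**Figure D4:**
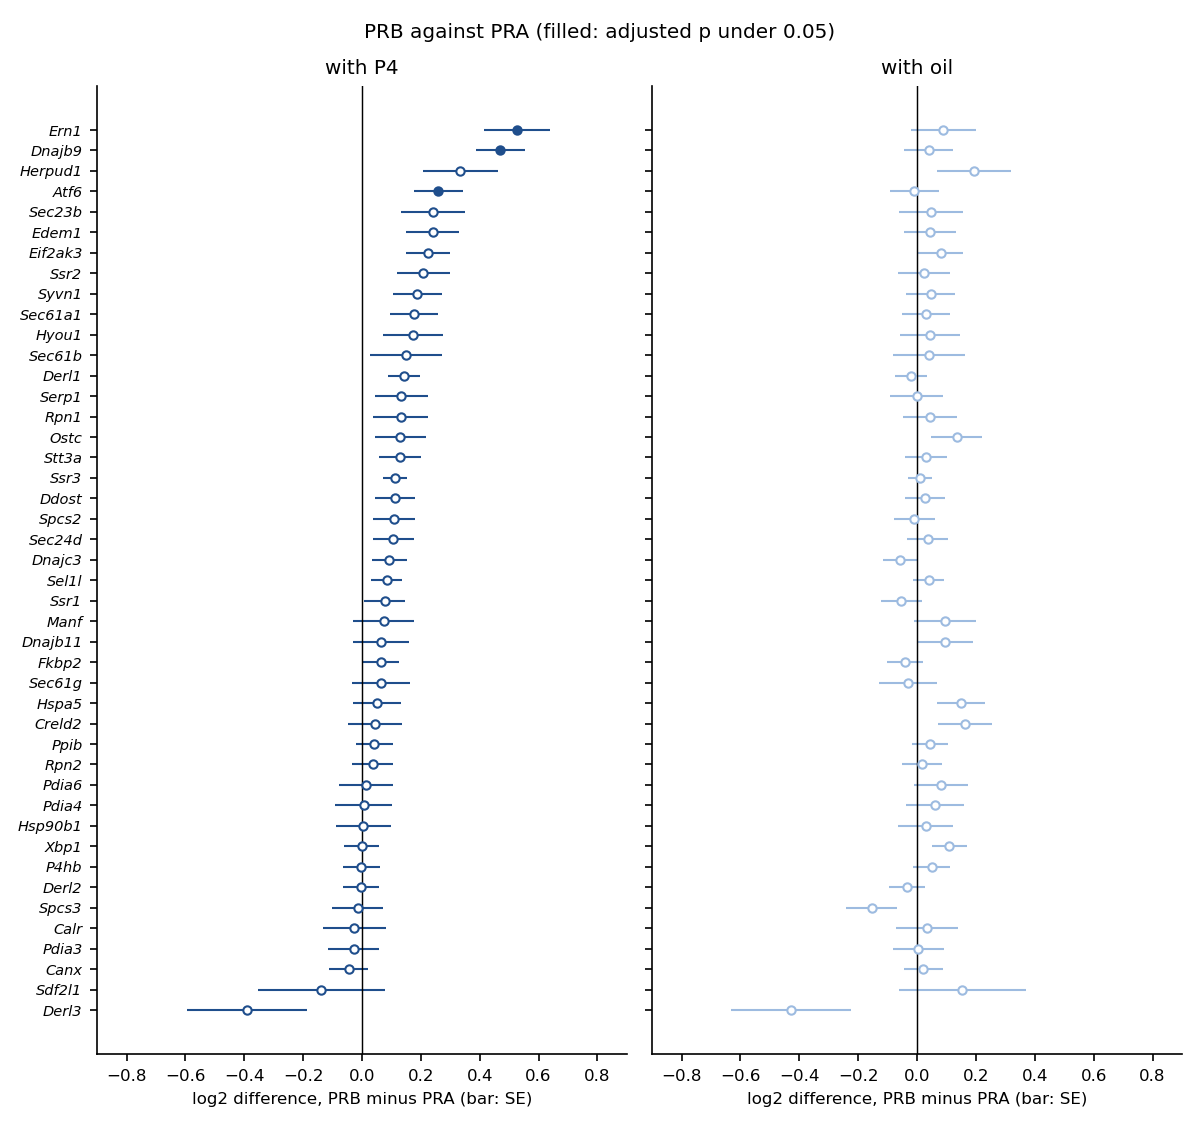
Log2 difference of PRB minus PRA for each of the 44 genes, on the log2(FPKM + 1) scale with its SE, after P4 and with oil (n = 4 per group). Filled points have an adjusted p under 0.05, which holds for Dnajb9, Ern1 and Atf6 after P4 and for no gene with oil.

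Other genes of the same pathways were read from 8 lists without the 44, with list medians of 0.12 to 0.71 in PRA and 0.11 to 0.80 in PRB. Their counts stand against 36.6% higher and 33.2% lower of all features in PRA, and 36.2% higher and 32.9% lower in PRB. ER to Golgi transport had 34 higher and 3 lower of 38 tested in PRA, and 34 higher and 2 lower in PRB. Uso1, a tether of transport vesicles, led it with 67.2 FPKM in PRA P4 against 22.9 FPKM in PRA oil uteri and 74.1 FPKM in PRB P4 against 22.5 FPKM in PRB oil uteri. Of the receptors that return escaped ER proteins, Kdelr2 differed by 1.01 in PRA and 1.11 in PRB and Kdelr3 by 1.48 in PRA and 0.96 in PRB. Translocation and signal peptide processing had 18 higher and 1 lower of 21 in PRA, and 18 higher and 2 lower in PRB, with Sec11c, a signal peptidase subunit, at 1.17 in PRA and 1.14 in PRB. N-glycosylation and glucose trimming had 26 higher and 3 lower of 34 in each strain. Alg3, a mannosyltransferase of the sugar precursor, differed there by 1.86 in PRA and 1.58 in PRB.

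Oxidative folding had 16 higher and 3 lower of 23 in PRA, and 16 higher and 2 lower in PRB. P4ha2, the catalytic subunit of a collagen prolyl 4-hydroxylase whose beta subunit is P4hb, had 80.6 FPKM in PRA P4 against 11.9 FPKM in PRA oil uteri, and 99.5 FPKM in PRB P4 against 14.2 FPKM in PRB oil uteri. Fkbp11, a prolyl isomerase of secretory tissues, differed by 2.10 in PRA and 2.25 in PRB. ER-associated degradation had 16 higher and 3 lower of 23 in PRA, and 16 higher and 2 lower in PRB, led by Vimp, which links the derlins to the ATPase p97, at 1.73 in PRA and 2.03 in PRB. Among other luminal chaperones, 10 rose and 2 fell of 14 in PRA, and 11 rose and 1 fell in PRB. Serpinh1, the collagen chaperone HSP47, had 459 FPKM in PRA P4 against 159 FPKM in PRA oil uteri, and 411 FPKM in PRB P4 against 175 FPKM in PRB oil uteri.

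Of 19 unfolded protein response regulators tested, 9 rose and 4 fell in PRA (47.4% and 21.1%, against 36.6% and 33.2% of all features). In PRB 10 rose and 2 fell (52.6% and 10.5%, against 36.2% and 32.9% of all features). The list medians were 0.12 in PRA and 0.11 in PRB. Under quantile normalization 4 of the list rose and 5 fell in PRA, where 5453 of all 15408 features rose and 5286 fell. In PRB 6 of the list rose and 7 fell, where 5151 of all features rose and 5291 fell. The split within this list thus depended on the normalization. Creb3l1, the ATF6-like factor OASIS known from collagen-secreting cells, rose to 32.7 FPKM in PRA P4, against 5.11 FPKM in PRA oil uteri, and to 32.6 FPKM in PRB P4, against 4.92 FPKM in PRB oil uteri. Its relative Creb3l2 differed by -0.20 in PRA (adjusted p = 0.0411) and -0.17 in PRB (adjusted p = 0.0776). Bhlha15, the secretory cell factor MIST1, was low, with means of 2.90 FPKM in PRA P4 against 0.192 FPKM in PRA oil uteri and 7.39 FPKM in PRB P4 against 0.285 FPKM in PRB oil uteri. Crebrf, a regulator named for its effect on CREB3, fell by 2.10 in PRA and by 1.78 in PRB.

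The integrated stress response, which PERK shares with other kinases of eIF2 alpha, had 12 higher and 5 lower of 23 in PRA (52.2% and 21.7%, against 36.6% and 33.2% of all features), and 12 higher and 4 lower in PRB (52.2% and 17.4%, against 36.2% and 32.9%). Atf4, its main transcription factor, had 279.7 FPKM in PRA P4 against 99.7 FPKM in PRA oil uteri, and 297 FPKM in PRB P4 against 104 FPKM in PRB oil uteri, with log2 differences of 1.48 in PRA and 1.51 in PRB. Asns, asparagine synthetase and a classical ATF4 target, differed by 2.67 in PRA and 2.51 in PRB, and Sesn2 by 2.23 in PRA and 2.32 in PRB. Ddit3, which encodes the factor CHOP, differed by 0.75 in PRA (adjusted p = 0.000151) and 0.40 in PRB (adjusted p = 0.015). Gadd45a, a growth arrest gene on the same list, fell by 1.29 in PRA and by 1.61 in PRB.

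**Figure D5:**
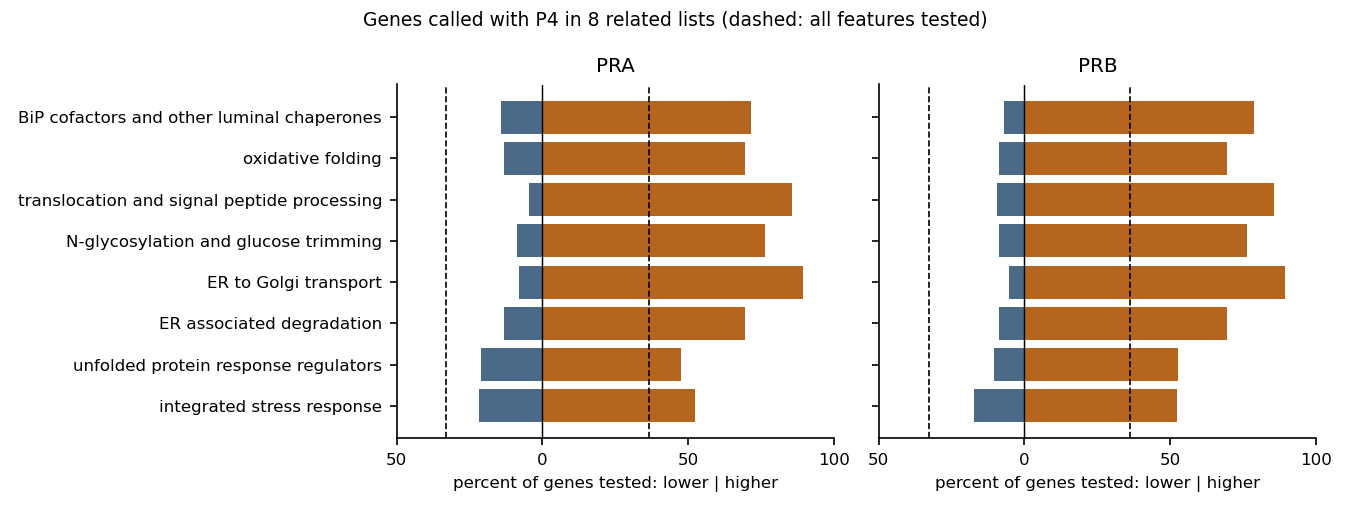
Percent of tested genes of 8 related lists called higher (to the right) or lower (to the left) with P4 in PRA and PRB uteri, with the share over all features tested as dashed lines. ER to Golgi transport and translocation lie farthest to the right, and the regulators and the integrated stress response have the largest shares on the left in PRA.

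Markers of uterine cell types are given because the tissue is mixed. Glandular markers summed to 211 to 269 FPKM in PRA P4 against 149 to 182 FPKM in PRA oil uteri, and to 259 to 310.2 FPKM in PRB P4 against 169 to 205 FPKM in PRB oil uteri, with 2 of 5 tested called higher in each strain, near the share of all features (36.6% in PRA and 36.2% in PRB). Epithelial markers overlapped in PRA (1404 to 1783 FPKM with P4 against 1318 to 1521 FPKM with oil) but not in PRB (1706 to 2226 FPKM with P4 against 1371 to 1395 FPKM with oil). Of 12 epithelial markers tested, 4 rose and 4 fell in PRA, and 4 rose and 2 fell in PRB (list medians 0.01 and 0.08). The share called higher was 33.3% in each strain, near that of all features, so these sums do not describe the markers as a class. Stromal markers summed to 1210 to 1404 FPKM in PRA P4 against 1357 to 1487 FPKM in PRA oil uteri, and to 1305 to 1435 FPKM in PRB P4 against 1431 to 1641 FPKM in PRB oil uteri. Of 11 stromal markers tested, 5 rose and 3 fell in PRA (45.5% and 27.3%, against 36.6% and 33.2% of all features). In PRB 4 rose and 5 fell (36.4% and 45.5%, against 36.2% and 32.9%). Endothelial markers summed to 164 to 206 FPKM in PRA P4 against 248 to 313 FPKM in PRA oil uteri, and to 233 to 246 FPKM in PRB P4 against 271 to 299 FPKM in PRB oil uteri. Of 8 endothelial markers tested, 0 rose and 4 fell in PRA (50% lower, against 33.2% of all features, list median -0.35). In PRB 0 rose and 1 fell (12.5% lower, against 32.9%, list median 0.01), so the PRB sum does not describe these markers as a class. Smooth muscle and leukocyte markers overlapped in summed level between P4 and oil in each strain. The ratio of P4 to oil was larger for the summed level of the 44 genes than for any list in this paragraph, and the part of cell composition in it was not tested.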

How the data were processed

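RNA of 16 whole uteri, 4 in each of 4 groups, was sequenced, and the authors deposited 1 table of FPKM values per gene. Reads were handled with TopHat2 2.0.4, Cufflinks 2.0.2 and Cuffdiff on mm10, per the submitters' processing notes, which give no order of steps. Raw counts were not used here, so no count test was run. Of 31274 features, 7717 were 0 in every library. The 15408 features averaging 1 FPKM or more over all libraries were tested with limma 3.58.1 in R 4.3.3 (moderated test with trend, two-sided) on log2(FPKM + 1), with all 16 libraries in 1 fit and Benjamini-Hochberg adjustment over all features. Adding 1 understates fold changes of low genes. The fit was also run on simulated data in which few features changed, unlike the broad P4 response here. Over the 5 comparisons it recovered 50.7% to 73.1% of changes of 0.5 log2 units, with 2.79% to 6.36% of calls false. Calls use an adjusted p under 0.05. The members, the related lists and the markers were chosen with earlier results of these data known. Named outside the 44 genes were up to 4 called genes per related list with the largest change, 6 regulators and receptors fixed by name, and the most expressed or called markers. Intervals of differences use 12 residual degrees of freedom. Promoters came from RefSeq (GRCm38.p6). The alternatives were another pseudocount (0.1), a filter of 5 FPKM or none, median-ratio scaling, quantile normalization, fits of only the compared libraries, a replicate block and leaving out each library in turn. Protein sequences were not analysed here. FPKM sums per library were 499748 to 595748, and 14807 to 15336 features reached 1 FPKM.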

Additional observations from a re-analysis of the deposited data

Results flagged for a closer look

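In 8 of 176 groups of 4 uteri (44 genes in 4 groups), 1 uterus lay apart from the other 3 by more than Dixon's 95% limit. Chance flags about 1 in 20 groups. Of these, 5 were in replicate 3 of PRB P4: Dnajb9 (112 FPKM, next 84.2 FPKM), Pdia6 (198 FPKM, next 166 FPKM), Xbp1 (356 FPKM, next 323 FPKM) and Spcs3 (87.7 FPKM, next 65.7 FPKM) were high, and Herpud1 was low (86.8 FPKM, next 122 FPKM). In replicate 4 of PRB oil, Sec61g was high (17.4 FPKM, next 15.04 FPKM) and Ssr3 low (87.1 FPKM, next 88.4 FPKM). In replicate 1 of PRA P4, Sec61g was low (27.3 FPKM, next 34.7 FPKM).

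Among the named genes outside the 44, the P4 response differed between strains in limma's test for Erp44, an oxidative folding protein that retrieves ER clients from the Golgi, which rose by 0.31 log2 units more in PRB than in PRA (adjusted p = 0.0455). It differed for Mzb1, a B cell and plasma cell chaperone, whose response was lower in PRB than in PRA by a log2 difference of -0.98 (adjusted p = 0.018).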

How the results depend on the processing

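In both P4 comparisons 1011 of 1012 single-gene values kept direction and call over 23 alternative fits, the exceptions being Herpud1 in PRA and Derl3 in PRB under quantile normalization, where 0 genes were called lower in PRB. That normalization gave medians of 0.98 in PRA and 1.00 in PRB. Fits without a library of the other strain could not change a log2 difference, only its spread and call. Leaving out each library in turn gave 43 higher and 1 lower in each strain, with medians of 1.13 to 1.19 in PRA and 1.22 to 1.28 in PRB. For PRB against PRA with P4, 2 to 8 genes were called higher without 1 library (8 without replicate 1 of PRB P4), with medians of 0.05 to 0.11, and 5 with median-ratio scaling. Over all 15408 features, 723 to 1329 were called higher without 1 library and 1401 with median-ratio scaling, against 1194 in the main fit. With oil, 0 genes were called in any of these, with medians of -0.01 to 0.06. For the difference of responses 0 to 1 gene was called (Dnajb9, without replicate 3 of PRB P4), with medians of 0.03 to 0.12. In the fit that called Dnajb9, 342 of 15408 features were called larger in PRB, against 227 with all libraries. Under quantile normalization the PRB differences of 2 markers changed sign, to -0.013 for Krt8 and 0.0072 for Gdf9. The cause was not tested. Replicate numbers do not pair the uteri in the labels: deviations from group means correlated between same-numbered libraries at a median r of 0.03 (6 of 24 pairs over 0.1). Between libraries of different number the median r was -0.003 (9 of 72 pairs over 0.1). With a replicate block 4 genes were called higher in PRB than in PRA after P4, against 3 without it, and 1214 of all 15408 features, against 1194.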
